A study of Mus musculus with 4 samples.

Results

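NRF2, its inhibitors and its partners form the regulatory layer above the antioxidant genes of the cell. Their RNA was examined in bone marrow derived macrophages (BMMs) that were treated with dimethyl itaconate (DI) during induction by RANKL, the cytokine that turns these cells into osteoclasts. The genes were chosen by name, and all 9 (Nfe2l2, Nfe2l1, Keap1, Cul3, Bach1, Maff, Mafg, Mafk and Sqstm1) were among the 34745 genes of the deposited table. All 9 also passed the filter on low counts, which left 12590 genes for testing. The cells came from wild-type C57BL/6 male mice, 8 weeks of age. After 12 h without FBS, they received complete medium with RANKL at 100 ng/mL for 24 h, together with either DI or DMSO, its vehicle. The dose of DI is 20 mM in the sample labels and 20 μM in the methods of the paper. Each group, RANKL+DI and RANKL+DMSO, had 2 libraries. The paper states in general that in vitro work was repeated independently, but not how the 2 libraries of a group relate to mice or cultures, so p-values measure only the spread between these libraries.

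NRF2, encoded by Nfe2l2, is a basic leucine zipper transcription factor that is made and destroyed continuously. KEAP1 holds it for the CUL3 ubiquitin ligase, and electrophiles such as DI can modify cysteines of KEAP1, so that NRF2 escapes degradation. NRF2 then binds antioxidant response elements (AREs) together with a small MAF protein (MAFF, MAFG or MAFK), while BACH1 binds the same elements with the same small MAF partners and represses transcription. SQSTM1, also called p62, is an autophagy receptor that can bind KEAP1 in place of NRF2, and it takes part in RANK signalling in osteoclasts. Much of this control acts on protein, which the libraries do not measure.

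Of the 9 regulators, Sqstm1 and Mafg rose with DI and the other 7 did not pass the test (edgeR's quasi-likelihood test, adjusted p under 0.05 over all tested genes). The rise lay between 1.46-fold and 1.76-fold for Sqstm1 and between 1.26-fold and 1.46-fold for Mafg (95% intervals). None of the 9 fell by this test. By unadjusted p under 0.05, 3 of the 9 genes passed, all higher, against 30.0% of all tested genes in either direction and 14.4% as higher. For comparison, 14.8% of all tested genes passed in either direction 7.14% passed as higher with DI and 7.7% as lower. The split of all called genes was 899 higher and 969 lower, and it became 548 and 1932 when libraries were scaled by size only. The median log2 fold change of the 9 genes was 0.12, against 0.00 over all tested genes. In 4 of the 9 genes (Sqstm1, Mafg, Bach1 and Nfe2l2) both DI libraries lay above both DMSO libraries. Such separation was common, with 58.6% of tested genes separated in either direction and 29.0% separated with DI higher, so it alone sets no regulator apart. It also depended on the scaling, since in the deposited FPKM, which is scaled by library total, Bach1 overlapped and both DI libraries of Nfe2l2 lay below both DMSO libraries. In simulated data made to resemble these libraries, the share of false calls was above the nominal level and small changes were often missed. This bears on every call and every missed call given here. Fewer genes were changed in the simulation than were called in the data, so the size of that share may differ here.

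**Figure D1:**
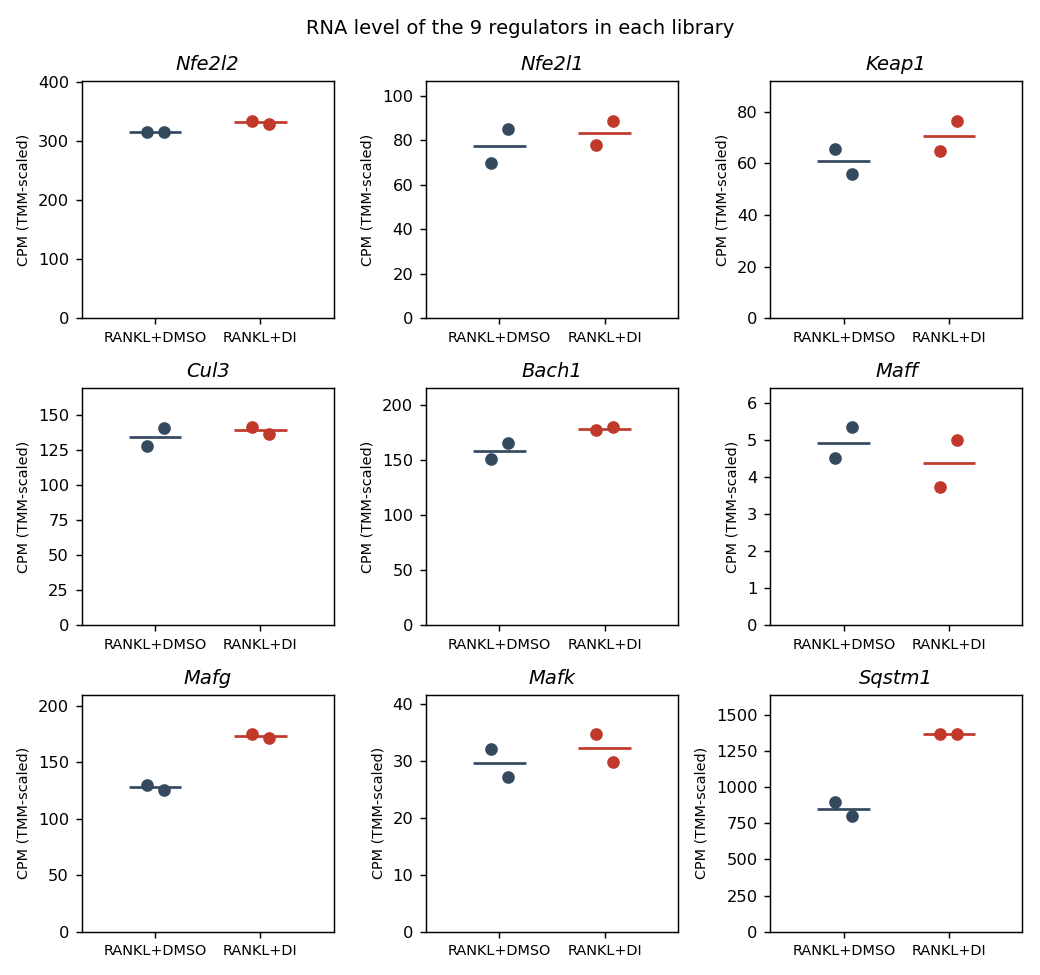
RNA level of each regulator in CPM (counts relative to the TMM-scaled library total, on vertical axes that start at 0), with a point for each library and a line at the group mean. Sqstm1 and Mafg show the widest gaps between the groups, while the points of Nfe2l1, Keap1, Cul3, Maff and Mafk overlap.

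The libraries held between 16085692 and 19403480 counts each, and replicates within each group varied beyond sampling noise (chi-square per degree of freedom 8.06 and 8.23). Macrophage genes were abundant, and of 9 such markers (among them Adgre1, Csf1r and Cd68) 5 were called higher and 1 lower with DI. Their summed level was 28840 and 29633 CPM with DI and 23487 and 22620 CPM with DMSO. Of 10 listed osteoclast genes, 8 were tested, and of these 2 were called higher and 5 lower with DI. Calcr was at 0 in every library. Over all tested genes, 7.14% were called higher and 7.7% lower. Markers of other cells were scarce. Summed over each list, the libraries held 7 to 10 counts of B cell markers, 0 to 2 of T and NK cell markers, 7 to 22 of mast cell and basophil markers, 1 to 5 of erythroid markers and 10 to 16 of dendritic cell markers. Neutrophil markers summed to 9.39 to 11.2 CPM. Stromal and endothelial markers summed to 48.6 and 49.1 CPM with DI and 59.1 and 63.9 CPM with DMSO. The part of these shifts in the results below was not tested, and in such bulk samples fewer cells of a type cannot be told apart from less RNA per cell.

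Sqstm1 (ENSMUSG00000015837, chromosome 11 from 50199366 to 50210827 on GRCm38, minus strand) was the most abundant of the 9 genes and the one with the smallest p. Its level was 1365 and 1366 CPM in the libraries with DI, against 899 and 804 CPM with DMSO. Both DI libraries lay well above both DMSO libraries, and the DI libraries were almost equal. The means were 1365 ± 1.15 and 852 ± 67.7 CPM (SD, n = 2 each). On the log2 scale the difference was 0.68 with a standard error of 0.056, at an adjusted p of 0.00180 (edgeR). By p it stood at rank 144 of all tested genes, and 6.81% of them had a larger absolute log2 fold change. Exons of Mrnip overlap 17.3% of its exon bases on the opposite strand, but Mrnip had only 29.8 counts per library on average.

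Mafg (ENSMUSG00000051510, chromosome 11 from 120625117 to 120633600, minus strand) encodes a small MAF protein, which binds DNA but has no activation domain of its own. It had 175 and 171 CPM with DI and 130 and 126 CPM with DMSO. Again the groups were separated by far more than the libraries within either group. The means were 173 ± 2.55 and 128 ± 3.40 CPM (SD, n = 2 each). This was a 1.35-fold difference, or 0.44 on the log2 scale with a standard error of 0.044, at an adjusted p of 0.00298 (edgeR), and 16.2% of tested genes had a larger absolute log2 fold change. On the same strand, exons of Sirt7, which had 639 counts per library on average, cover 2.21% of its exon bases.

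The other small MAF genes were lower in level than Mafg and did not pass the test. Mafk (ENSMUSG00000018143, chromosome 5 from 139791513 to 139802653) had 34.7 and 29.8 CPM with DI and 32.1 and 27.1 CPM with DMSO. Its groups overlapped, and its log2 fold change was 0.12 (95% interval -0.16 to 0.40, adjusted p = 0.546, edgeR). Maff (ENSMUSG00000042622, chromosome 15 from 79347541 to 79359072) was the least abundant regulator, with 64 and 94 counts with DI and 84 and 89 with DMSO. At this depth its interval was the widest of the 9, from -0.67 to 0.34 around a log2 fold change of -0.16 (adjusted p = 0.649, edgeR). A change of Maff as large as that of Mafg in the downward direction thus lies inside its interval, while in the upward direction it does not.

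Within a library, the ratio of FPKM values (counts scaled by gene length and library total) compares genes with each other and does not depend on how the libraries were scaled. Mafg made up 75.7% and 75.8% of the summed FPKM of the small MAF genes with DI, and 70.0% and 70.4% with DMSO. The summed small MAF level was 0.347 and 0.346 times that of Nfe2l2 with DI, and 0.296 and 0.284 times with DMSO. With merged exon lengths, described below, it was 0.471 and 0.464 times with DI, and 0.399 and 0.378 times with DMSO. For the Mafg share and the summed level the groups did not overlap and stood apart by more than the libraries within a group. With 2 libraries against 2, an exact permutation test cannot go below p = 0.333, so no test is given for the ratios.

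Nfe2l2 (ENSMUSG00000015839, chromosome 2 from 75675513 to 75704641, minus strand) itself was measured at 335 and 328 CPM with DI and 316 and 315 CPM with DMSO. In CPM the DI libraries were higher, but the groups lay close together. In FPKM the order was turned, with 82.1 and 80.9 with DI and 83.4 and 83.2 with DMSO. On the log2 scale they differed by 0.07 with a standard error of 0.036, at an adjusted p of 0.249 (edgeR), and by -0.03 when the libraries were scaled by size only. Its 95% interval ran from -0.02 to 0.16, or 0.988-fold to 1.12-fold, the narrowest of the 9 genes. The intervals of Sqstm1 and Mafg thus lie wholly above that of Nfe2l2, although no test between genes was made.

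Nfe2l1 (ENSMUSG00000038615, chromosome 11 from 96817414 to 96829968), which encodes NRF1, a related factor that is anchored in the endoplasmic reticulum and induces proteasome genes, had 77.6 and 88.8 CPM with DI. With DMSO it had 69.8 and 85.2 CPM. The libraries within each group differed by more than the group means did. Its log2 fold change was 0.10 (95% interval -0.17 to 0.38, adjusted p = 0.597, edgeR) and -0.00 when scaled by library size only.

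The genes of the KEAP1 ligase did not pass the test either. Keap1 (ENSMUSG00000003308, chromosome 9 from 21229730 to 21239332), the sensor and substrate adaptor, had 64.8 and 76.6 CPM with DI and 65.8 and 56.0 CPM with DMSO. A DMSO library stood above the lower DI library. Its log2 fold change was 0.22 (95% interval -0.06 to 0.49, adjusted p = 0.260, edgeR), with a wide interval. Leaving out each library in turn gave 0.09 to 0.34, the lowest without DI replicate 2 (0.09) and DMSO replicate 2 (0.11). Gm16754 overlaps 10.9% of the exon bases of Keap1 on the opposite strand, with 47.8 counts per library on average. Cul3 (ENSMUSG00000004364, chromosome 1 from 80264923 to 80340480), the scaffold of the ligase, had 141 and 137 CPM with DI and 128 and 141 CPM with DMSO. Its log2 fold change of 0.05 had an interval from -0.10 to 0.19 (adjusted p = 0.642, edgeR), and its value was -0.06 when scaled by library size only.

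The FPKM of Sqstm1 was 23.5 and 19.9 times that of Keap1 with DI, and 15.3 and 16.04 times with DMSO. With merged exon lengths they were 29.5 and 24.9 times with DI, and 19.1 and 20.1 times with DMSO. On both scales these ratios did not overlap between the groups. That of Nfe2l2 was 10.3 and 8.56 times that of Keap1 with DI and 9.59 and 11.2 times with DMSO. With merged exon lengths, described below, these were 6.38, 5.30, 5.94 and 6.96 times. On both scales the groups overlapped, as did the ratios of Cul3 to Keap1, which lay between 2.23 and 3.15 in the 4 libraries.

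Bach1 (ENSMUSG00000025612, chromosome 16 from 87698945 to 87733346, plus strand), the repressor at AREs, came nearest to the threshold among the regulators that did not pass. It had 177 and 180 CPM with DI and 151 and 165 CPM with DMSO. The groups did not overlap in CPM, but in FPKM they did, with 24.4 and 24.8 with DI and 22.3 and 24.5 with DMSO. The difference was 0.17 on the log2 scale (95% interval 0.04 to 0.31), with a p of 0.0205 before adjustment and an adjusted p of 0.0952 (edgeR). Scaled by library size only, it was 0.07 (adjusted p = 0.421, edgeR). Without DMSO replicate 1 the log2 fold change was 0.11, and without DMSO replicate 2 it was 0.25. The FPKM of Nfe2l2 was 3.37 and 3.26 times that of Bach1 with DI, and 3.73 and 3.39 times with DMSO. The groups did not overlap, but the gap between the nearest libraries was smaller than the gap between the DMSO libraries.

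**Figure D2:**
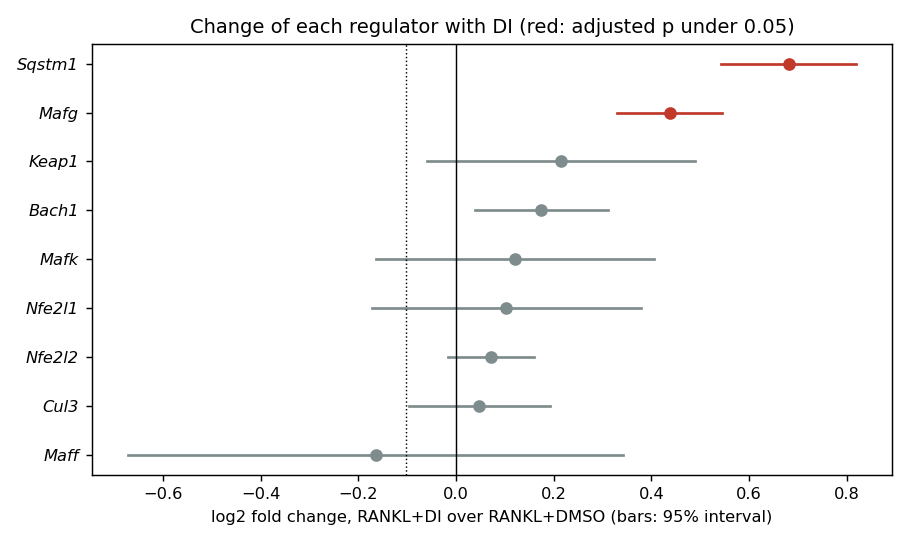
Log2 fold change of each regulator, RANKL+DI over RANKL+DMSO, with its 95% interval; genes at an adjusted p under 0.05 are in red. The dotted line at -0.10 marks the median of all tested genes when libraries are scaled by size only, and Nfe2l2, Nfe2l1 and Cul3 change sign under that scaling, while Sqstm1 and Mafg stay above 0.

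**Figure D3:**
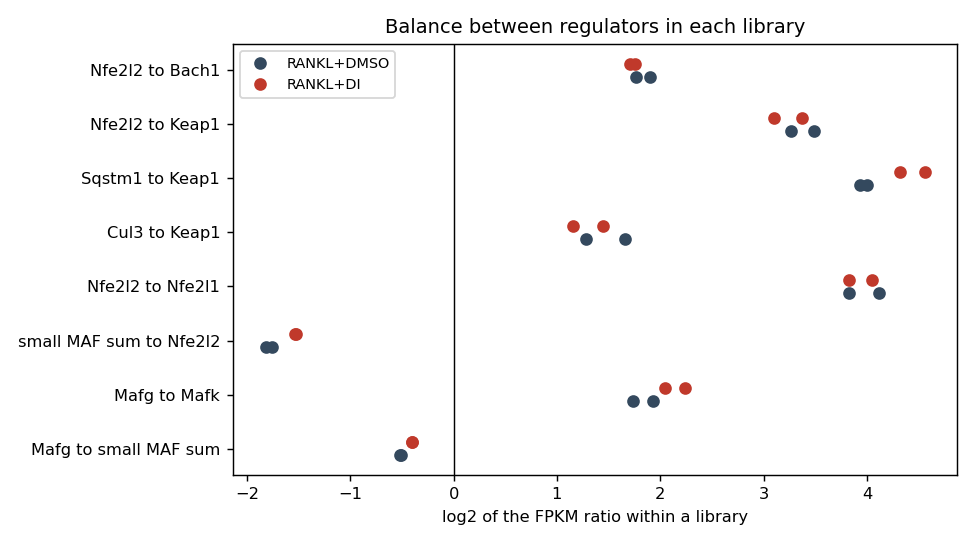
Log2 of the FPKM ratio between regulators within each library, with a point per library, coloured by group. Ratios of Sqstm1 to Keap1, of the small MAF sum to Nfe2l2 and of Mafg to Mafk are higher in both DI libraries, whereas those of Nfe2l2 to Keap1, Cul3 to Keap1 and Nfe2l2 to Nfe2l1 overlap. For Mafg to Mafk, the gap between the nearest libraries of the groups is smaller than the gap within either group.

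Ordered by the deposited FPKM, averaged over the 4 libraries, the regulators stood at 157 for Sqstm1, 82.4 for Nfe2l2, 24.0 for Bach1, 21.8 for Cul3, 19.2 for Mafg, 8.37 for Keap1, 5.35 for Nfe2l1, 4.82 for Mafk and 2.20 for Maff. The ranges over the libraries overlapped between the neighbours Bach1 and Cul3, Cul3 and Mafg, and Nfe2l1 and Mafk. The lengths behind the deposited FPKM affect this order, because for many genes overlapping exons of different isoforms were added more than once. For Nfe2l1 the length was 15007 bases, 2.76 times its merged exons in GENCODE M21. With merged exons the FPKM of Nfe2l1 was 14.8 and that of Keap1 14.0, so that their order turned around, as did that of Cul3 (28.0) and Bach1 (27.1), with overlapping ranges in both cases. Sqstm1 at 328 and Nfe2l2 at 85.1 remained first and second. Nfe2l2 was then 5.30 to 6.48 times as abundant as Nfe2l1, in place of 14.2 to 17.3 times. The table's gene models of Keap1 and Maff differ in extent from those of GENCODE M21, so their merged lengths are approximate.

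RNA of Sqstm1 and Mafg rose together, and both genes are known NRF2 targets themselves. Their promoters were therefore searched for the core of the ARE, TGACNNNGC, on both strands, in the RefSeq windows from 250 bases before to 50 after the start (300 bases, GRCm38.p6). All 9 genes matched a symbol in that set. The motif was present in windows of 4 of the 9 genes (Mafg, Mafk, Maff and Nfe2l2) and of 11 of 32 NRF2 target genes, against 14.0% of all 27025 genes with a window. Of the genes that rose, Mafg held it in its window and Sqstm1 did not. Nfe2l2, Mafk and Maff held it without passing the test. Sequence outside these windows was not searched, so a gene without a match may still hold the motif elsewhere. Nfe2l1 with 5 windows and Maff with 3 had more chances to match than genes with a single window. A match describes letters only and is not a bound site. Whether NRF2 acted on Sqstm1 or Mafg in these cells was not tested. Upstream sequence of Mafg (chr11:120633601-120633797, minus strand), Nfe2l2 (chr2:75704664-75704913, minus strand) and Sqstm1 (chr11:50210828-50210889, minus strand) is shown to set the gene that rose with a match beside a match without a called change and a called change without a match. Capitals mark the motif, which lies on the opposite strand in Mafg. The stretches end before annotated exons of each gene, but that of Nfe2l2 holds exon bases of the lncRNA E030042O20Rik and that of Mafg exon bases of the lncRNA Gm17586. The stretch of Sqstm1 is short because exons of Mgat4b begin beyond it.
Mafg: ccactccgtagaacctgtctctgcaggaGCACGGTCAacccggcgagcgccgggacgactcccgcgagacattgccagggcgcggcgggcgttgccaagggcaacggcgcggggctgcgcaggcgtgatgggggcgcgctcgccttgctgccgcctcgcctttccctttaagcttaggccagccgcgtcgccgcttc
Nfe2l2: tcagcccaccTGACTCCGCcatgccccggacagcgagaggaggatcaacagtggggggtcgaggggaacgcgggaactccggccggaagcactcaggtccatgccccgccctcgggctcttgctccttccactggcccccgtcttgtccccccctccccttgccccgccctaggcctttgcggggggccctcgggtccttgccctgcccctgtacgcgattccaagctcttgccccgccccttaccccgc
Sqstm1: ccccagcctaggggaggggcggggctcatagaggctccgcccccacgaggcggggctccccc

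The targets of these regulators were counted in the same way. All 35 tested genes of a list of NRF2 targets rose with DI (adjusted p under 0.05, edgeR), against 7.14% of all tested genes. Their log2 fold changes lay between 0.21 and 1.84, with a median of 0.76. The list was written from general knowledge but with earlier results of these data known, so this count is not independent of them. Scaled by library size only, 30 of the 35 passed, with a median of 0.66. Nqo1, a quinone reductase, rose from 55.2 ± 6.46 to 156 ± 8.86 CPM (SD, n = 2 in both groups), which is 1.501 higher on the log2 scale. Hmox1, which encodes heme oxygenase, rose from 533 ± 46.6 to 936 ± 9.74 CPM, a log2 fold change of 0.81. The smallest p-values in the list were those of the peroxiredoxin gene Prdx1, the catalase gene Cat and the scavenger receptor gene Cd36, with log2 fold changes of 1.18, 1.11 and 1.09.

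All 10 genes of a list of genes repressed by BACH1 also rose, against 7.14% of all tested genes. Their median log2 fold change was 0.85. That list was chosen with the same earlier knowledge, and 9 of the 10 are also in the list of NRF2 targets. The cystine transporter gene Slc7a11 had a log2 fold change of 1.25, the iron exporter gene Slc40a1 of 1.24 and the thioredoxin reductase gene Txnrd1 of 0.73. Of 32 constitutive proteasome subunit genes, the textbook targets of NRF1, only Psmb5 rose (log2 fold change 0.30, adjusted p = 0.0146, edgeR) and none fell. With 7.14% of all tested genes called higher and 7.7% lower, 1 call among 32 genes says little by itself. Psmb5 did not pass without DMSO replicate 1 (0.29) or without DMSO replicate 2 (0.30), which left 0 of the 32 called. The median of that list was 0.01. Scaled by library size only, 1 was called higher and 1 lower, and with limma on log2(FPKM + 1), 1 higher and 5 lower. The next smallest p-values were those of Psmc1 (0.16) and Psma6 (-0.12), which did not pass.

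**Figure D4:**
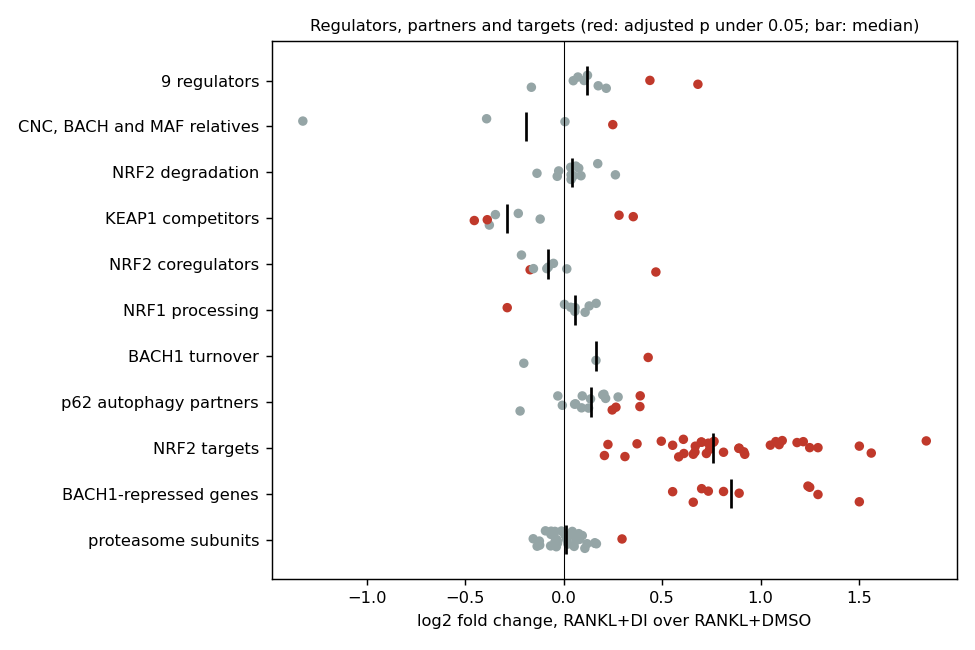
Log2 fold changes, RANKL+DI over RANKL+DMSO, of the 9 regulators and of the tested genes in 10 lists around them, with a point per gene, red at an adjusted p under 0.05, and a bar at the median of each list. All points of the NRF2 targets and of the BACH1-repressed genes lie above 0 and in red, while the proteasome subunits and the genes of NRF2 degradation gather near 0.

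In the machinery that degrades NRF2 no gene passed the test. Of 13 genes for parts and regulators of its ubiquitin ligases, 0 were called by edgeR and by DESeq2 and 3 had an unadjusted p under 0.05 (edgeR), a share below the 30.0% of all tested genes, with log2 fold changes between -0.14 and 0.26 and a median of 0.04. Gsk3b, whose kinase marks NRF2 for the second ligase, had a log2 fold change of 0.17 (adjusted p = 0.0817, edgeR). Cand1, a cullin exchange factor, stood at -0.14, and it was the gene called when libraries were scaled by size only (-0.24), while Ube2m, which encodes a NEDD8-conjugating enzyme, stood at 0.26 and was called without DI replicate 2 (0.39). Of 8 tested genes for other proteins that compete for the KEAP1-NRF2 contact, 2 rose and 2 fell, against 14.8% of all tested genes called. The median of the 8 was -0.29. The risers were Cdkn1a, the cell cycle inhibitor p21 (0.35, standard error 0.035), and Fam129b (0.28, standard error 0.037). Mcm3, a replication helicase subunit, fell by 0.39 on the log2 scale, and Pgam5, a mitochondrial phosphatase gene, was the other that fell. Without DMSO replicate 1, Mcm3 did not pass (-0.36) and 2 of the 8 were called. Scaled by library size only, 2 were called higher and 4 lower.

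Among 8 genes for coregulators of NRF2, Rxra rose and Smarca4 fell, where 14.8% of all tested genes were called in either direction. Rxra, a nuclear receptor that can inhibit NRF2, went from 64.1 ± 0.349 to 88.6 ± 1.08 CPM (SD, n = 2 in both groups), which is 0.47 higher on the log2 scale (adjusted p = 0.00420, edgeR). Smarca4, a chromatin remodeller, had a log2 fold change of -0.17 and an adjusted p of 0.0497 (edgeR), which did not pass with the DESeq2 test, with the replicate block (-0.17) or without any single library (-0.20 to -0.14). Scaled by library size only, 1 gene of this list was called higher and 4 lower. Ncoa3 stood at -0.15 and did not pass. Of 8 tested genes for the processing and turnover of NRF1, only Hcfc1 passed (log2 fold change -0.29), a share near that of all tested genes. Ogt and Vcp stood at 0.16 and 0.13. Of the 3 genes for BACH1 turnover, Fbxl17 rose (0.43, standard error 0.064), while Xpo1 (-0.20) and Fbxo22 (0.16) did not pass. With limma on log2(FPKM + 1), Fbxl17 did not pass (0.26) and Xpo1 was called lower (-0.29). This list is too short to set against the share of all tested genes. Xpo1 was called lower with the replicate block (-0.20), when scaled by library size only (-0.31) and without DI replicate 2 (-0.26).

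Over all tested genes, 14.8% were called in either direction and 7.14% as higher. Partners of p62 in autophagy were called in 4 of 17 tested genes, all of them higher with DI, with a median log2 fold change of 0.14. The called genes belong to the LC3 and GABARAP families, which tie receptors such as p62 to the autophagosome membrane. Gabarap rose by 0.26, Gabarapl1 by 0.39 and Gabarapl2 by 0.25 on the log2 scale, and Map1lc3a was the other. With the DESeq2 Wald test, the replicate block or any single library left out, 2 of the 17 were called. Scaled by library size only, 2 were called higher and 1 lower. Gabarap and Gabarapl1 kept their calls under all of these, while Gabarapl2 and Map1lc3a were not called under any. Among relatives of NRF2 and MAF, Nfe2 had 3 to 15 counts in each library and was not called (adjusted p = 0.158, edgeR), and neither were Mafa (log2 fold change -0.39) and Maf (0.01).

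Genes with the most similar pattern were sought by the Euclidean distance between log2 CPM values centred on each gene's mean over the 4 libraries. The nearest to Sqstm1 were Upp2, Gstm2 and Akr1a1, at distances of 0.035, 0.045 and 0.053, with log2 fold changes of 0.68, 0.67 and 0.72. Upp2 was low in level, at a mean of 2.51 CPM with DI and 1.55 with DMSO, and was not called (adjusted p = 0.114, edgeR). The genes nearest to Nfe2l2 were Sirpa, Slc6a6 and Tmed7, at distances of 0.0085, 0.011 and 0.013, with log2 fold changes between 0.07 and 0.08. With 4 libraries in 2 groups, such a distance depends largely on the size of the difference between the groups.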

How the data were processed

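RNA was measured in 4 libraries of RANKL-treated BMMs, 2 with DI and 2 with DMSO, grouped by their titles. Unnormalized counts for each gene and library, from paired-end mRNA sequencing, were deposited by the authors. The authors also deposited FPKM values, which divide the counts by the library total and by a gene length. A second table repeats these values with GO and KEGG terms and was not used. The genome is GRCm38 (mm10) per the labels, while the aligner, the counting program, its use of strand and the annotation release are not given in the sources used here. For 66.8% of the 13773 genes with overlapping exons, the length implied by the FPKM equals the sum of all distinct exons in GENCODE M21 (within 0.2%), and for 0.624% it equals the merged exons.

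Counts were tested in R 4.3.3 with edgeR 4.0.16 (TMM factors, default filter on low counts, quasi-likelihood F test with condition as the only term, Benjamini-Hochberg adjustment over 12590 genes). Standard errors were derived by dividing each absolute log2 fold change by the root of F, and 95% intervals from the moderated t quantile. CPM values use the TMM-scaled totals. There were 2 residual degrees of freedom before moderation. Precision is limited by these and by the depth, which was 16085692 to 19403480 counts per library. Alternatives used DESeq2 1.42.0, limma 3.58.1, other scalings and filters, log2(FPKM + 1) and log2(FPKM + 0.01), a replicate block and each library left out. The steps were tested on simulated data.

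The members and the 19 gene lists, written from general knowledge, were chosen with earlier results of these data known. Named genes are the 9 members, the 3 smallest p-values in each list around the regulators, Nqo1 and Hmox1, and the 3 nearest genes to Nfe2l2 and Sqstm1. A gene that this rule names is not reported here. Pgam5, Map1lc3a, Maf, Calcr and the macrophage markers were named after their values were seen. Overlapping exons and similar transcripts (BLAST+ 2.17.0, at least 95% identity) were taken from GENCODE M21.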

Additional observations from a re-analysis of the deposited data

How the results depend on the processing

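The calls of Sqstm1 and Mafg were kept under all 15 alternatives, with log2 fold changes of 0.58 to 0.76 and 0.32 to 0.46, and none of the other 7 regulators was called under any of them. Bach1 came nearest, with adjusted p-values between 0.0579 and 0.447 over the alternatives of edgeR, DESeq2 and limma. Directions of small values were less stable. Scaled by library size only, which puts the median of all tested genes at -0.10, Nfe2l2 stood at -0.032, Nfe2l1 at -0.00014 and Cul3 at -0.056. With limma on log2(FPKM + 1) and log2(FPKM + 0.01), Nfe2l2 stood at -0.031 and -0.032 and Cul3 at -0.052 and -0.054. Leaving out each library in turn gave 0.06 to 0.09 for Nfe2l2, -0.034 to 0.25 for Nfe2l1, -0.021 to 0.12 for Cul3, 0.09 to 0.34 for Keap1, 0.0051 to 0.25 for Mafk and -0.40 to 0.030 for Maff. The values past 0 came without DMSO replicate 1 for Nfe2l1 and Cul3 and without DI replicate 1 for Maff. It gave 1087 to 1394 genes called in all, against 1868 with every library, with 1120 without DMSO replicate 1 and 1087 without DMSO replicate 2. Same-numbered libraries did not deviate together (correlation of deviations -0.08 over 11358 genes). With the replicate number as a block, 1389 genes were called, and among the regulators still Sqstm1 (adjusted p = 0.00628) and Mafg (adjusted p = 0.0112, edgeR). With merged exon lengths, an alternative chosen after the data were seen, the log2 difference in the Mafg share of small MAF FPKM was 0.099 in place of 0.11. What depth limits is mainly Maff, which had 64 to 94 counts per library.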

Other observations

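For 66.8% of the genes with overlapping exons, the length behind the deposited FPKM equalled the sum of all distinct exons in GENCODE M21. The ratio of the length behind the FPKM to the merged exons was 1.03 for Nfe2l2, 1.13 for Bach1, 1.29 for Cul3, 1.39 for Mafg, 1.64 for Mafk, 2.09 for Sqstm1 and 2.76 for Nfe2l1. For Keap1 and Maff, whose gene models differ from GENCODE M21, it was 1.67 and 0.817. A length above the merged exons lowers the FPKM of a gene against that of other genes, whereas comparisons of a gene between libraries are not touched.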
